A study of Mus musculus with 6 samples.

Results

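Bone morphogenetic proteins (BMPs) are secreted ligands of the TGF-beta superfamily, named for their ability to induce bone, and they were examined here together with secreted proteins that hold them away from their receptors. The set comprised 10 genes of the 29018 in the deposited table, picked by gene symbol: the ligand genes Bmp2, Bmp3, Bmp4, Bmp5, Bmp6 and Bmp7, and the antagonist genes Grem1, Nog, Chrd and Fst. Each symbol had 1 identifier, and all 10 genes passed the filter on low counts that left 18221 genes for testing. RNA had been sequenced from osteoblasts of the skull vault (calvaria) of newborn mice after osteogenic differentiation. The KO cells carried a knockout of NDR1, a serine/threonine kinase encoded by Stk38, and the WT cells were wild type, with 3 libraries of each. The form of the KO allele, the strain and sex of the mice, the length of differentiation and whether replicates were separate animals or cultures were not given in the sources used here, so the spread behind each p-value is that of the libraries at hand and could be technical alone.

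BMPs bind pairs of type I and type II serine/threonine kinase receptors, which phosphorylate SMAD1, SMAD5 and SMAD9. These move into the nucleus with SMAD4 and switch on targets such as the Id genes, Msx2 and, in bone-forming cells, Runx2. Noggin, chordin, gremlin and follistatin bind the ligands outside the cell, and the genes of several antagonists are themselves induced by BMP signalling. In the skull, BMP signalling drives osteoblast differentiation, and noggin helps to keep sutures open.

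Total counts ran from 61461870 to 76159034 in KO libraries and from 66308530 to 68395991 in WT libraries. Stk38 stood at 50.2 ± 2.31 CPM in KO and 76.6 ± 3.24 CPM in WT (CPM are TMM-scaled counts per library size, with SD, n = 3 each), so the targeted gene was lower but still read. Osteoblast markers were present in all libraries, with Alpl at 42.7 ± 3.42 CPM in KO and 97.0 ± 2.27 CPM in WT. Of 13 macrophage and osteoclast markers 9 rose and 2, the osteoclast genes Ctsk and Mmp9, fell in KO. A further osteoclast gene, Acp5, was not called (log2 change 0.07 ± 0.08 (SE), edgeR adjusted p = 0.642). None of the 13 was at 0 in every library. Their summed level ranged from 269.6 to 285 FPKM in KO and from 268 to 281 FPKM in WT. Without Ctsk and Mmp9 the other 11, Acp5 among them, summed to 133 to 144 FPKM in KO and 45.3 to 62.3 FPKM in WT. The macrophage genes C1qc and Csf1r were 3.02-fold and 2.13-fold higher in KO. Of 6 adipocyte markers 5 fell, with summed levels of 14.1 to 15.3 FPKM in KO and 28.6 to 29.9 FPKM in WT. Most of that sum was Lpl, at 11.1 FPKM in KO and 22.2 FPKM in WT on average, so it hides larger falls. Fabp4, Adipoq and Plin1, all at low levels, were 11.3-fold, 22.6-fold and 51.4-fold lower in KO. Pparg was not called (edgeR, adjusted p = 0.157). Of 8 fibroblast and progenitor markers 7 fell, with sums of 1039.8 to 1097 FPKM in KO and 1561 to 1605 FPKM in WT. Of 6 chondrocyte markers 2 rose and 3 fell, with sums of 515.9 to 551 FPKM in KO and 370.5 to 412 FPKM in WT. Most of that sum was Col2a1, at 465 FPKM in KO and 297 FPKM in WT on average, so it hides the 3 that fell. Of 5 neural and Schwann markers tested 3 rose, with sums of 29.9 to 32.8 FPKM in KO and 13.1 to 16.1 FPKM in WT. Of 5 muscle and 5 endothelial markers tested 2 and 3 fell, and both lists summed to under 5 FPKM in each library. The part of these cell types in the results that follow was not tested. In libraries of whole cultures, fewer cells of a type and less RNA per cell cannot be told apart.

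KO libraries differed from WT libraries in the levels of several BMP ligand and antagonist genes. Bmp4 and Fst, the most abundant ligand and antagonist of the set, were not called. Of the 10 genes, 6 passed edgeR's quasi-likelihood test at an adjusted p under 0.05, against 22.9% of all genes tested. Grem1 and Bmp7 rose (2 of 10, where 11.2% of all genes tested were called higher), and Bmp2, Bmp3, Bmp6 and Nog fell (4 of 10, where 11.7% were called lower). The median log2 change was -0.12 over the 10 genes and 0.0038 over all genes tested. In 8 of the 10 genes the KO and WT libraries did not overlap, against 38.2% of all genes tested. The exceptions were Bmp5 and Chrd.

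**Figure D1:**
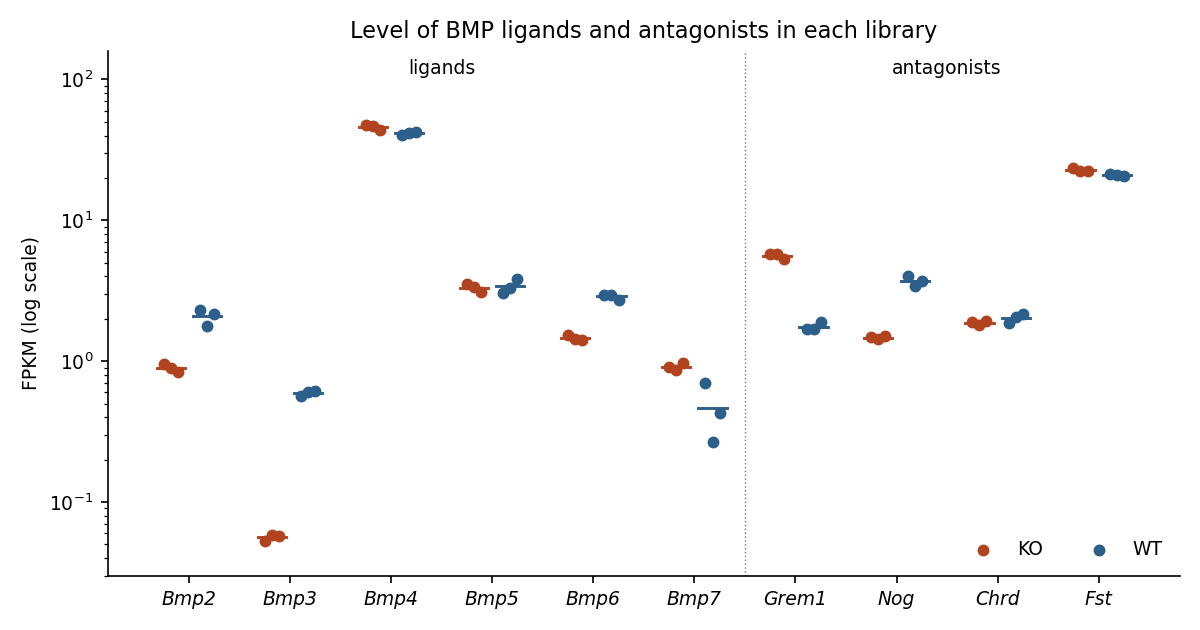
Level of each gene in FPKM on a log scale, with 1 point per library and a bar at the mean of the 3 libraries of each genotype, KO left of WT. Bmp4 lies between 40.1 and 47.5 FPKM in all libraries, and Bmp3 in KO lies below 0.06 FPKM.

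The start regions of Bmp6 and Grem1 are printed because these were the called genes, 1 lower and 1 higher, for which a promoter was at hand. A sequence of 250 bases before to 50 after the annotated start was matched for 5 of the 10 genes (Bmp4, Bmp5, Bmp6, Grem1 and Chrd), from RefSeq on GRCm38.p6. Capitals mark matches, on either strand, to any of 6 short motifs: GGCGCC, a GC-rich site known for SMAD1 and SMAD5, GTCTG, a short SMAD3 and SMAD4 site, TGTGGT, the RUNX core, GTAAACA, the forkhead core, GGAATG, the TEAD core, and CACGTG, an E-box. The Bmp6 window is chr13:38345466-38345765 on the plus strand and the Grem1 window chr2:113758599-113758898 on the minus strand, each written along its gene.
Bmp6: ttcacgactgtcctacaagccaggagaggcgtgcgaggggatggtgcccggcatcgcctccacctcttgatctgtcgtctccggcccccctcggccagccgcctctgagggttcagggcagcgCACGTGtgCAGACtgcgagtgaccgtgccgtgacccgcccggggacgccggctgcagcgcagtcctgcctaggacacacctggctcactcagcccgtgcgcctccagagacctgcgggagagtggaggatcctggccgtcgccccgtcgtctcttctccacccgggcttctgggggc
Grem1: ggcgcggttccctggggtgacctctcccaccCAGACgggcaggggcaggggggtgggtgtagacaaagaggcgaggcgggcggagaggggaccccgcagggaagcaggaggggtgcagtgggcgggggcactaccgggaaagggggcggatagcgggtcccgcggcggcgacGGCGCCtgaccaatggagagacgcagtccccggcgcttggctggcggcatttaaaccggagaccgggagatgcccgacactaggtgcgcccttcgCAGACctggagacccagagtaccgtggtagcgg
Positions are counted from the start, negative before it. Grem1 held GGCGCC at -78, a motif found in 11.9% of 32851 promoter windows, and GTCTG, read on the other strand as CAGAC, at -219 and 18. Bmp6 held CACGTG at -127 (7.15% of windows) and GTCTG, again on the other strand, at -119. GTCTG was in 49.6% of all windows. The windows of genes that were not called held these motifs too. GGCGCC was in Chrd at -203, CACGTG in Bmp4 at -188, and GTCTG in Bmp5 at -134 and Chrd at 8. The RUNX, forkhead and TEAD cores were in none of the 5 matched windows, against 16.8%, 3.65% and 14.7% of all windows. GC content was 69.3% for Bmp6 and 70.7% for Grem1, against a median of 52.7%. For Bmp4, Bmp5 and Chrd, which were not called, it was 64%, 43.3% and 78.3%. A match describes letters only and shows no binding.

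Among the ligands of the set, Bmp4 made up most of the transcripts per length. Bmp4 (ENSMUSG00000021835, chromosome 14, 46620977 to 46628126) encodes a close relative of BMP2 that induces bone. These positions, like those below, are the deposited ones, and their mouse build was not settled. It had 47.5, 47.1 and 43.8 FPKM in KO replicates 1 to 3, against 40.1, 41.7 and 42.5 FPKM in WT replicates 1 to 3. Every KO library was above every WT library, by a small margin. The log2 change was 0.10 ± 0.04 (SE) and was not called (edgeR, adjusted p = 0.0798). The 95% interval of the change was 0.02 to 0.19. Bmp4 was called as higher in KO where the scaling left out TMM (log2 change 0.15, adjusted p = 0.0166), in limma's tests on FPKM with a mean of at least 1 (adjusted p = 0.0271 and 0.0276 at pseudocounts of 1 and 0.1), and without KO replicate 3 (adjusted p = 0.0362). The adjusted p of its 16 alternatives spanned 0.0166 to 0.244.

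Bmp2, the ligand used to heal bone and a strong inducer of osteoblasts, fell. Bmp2 (ENSMUSG00000027358, chromosome 2, 133394079 to 133404805) had 0.952, 0.901 and 0.836 FPKM in KO libraries, against 2.33, 1.77 and 2.18 FPKM in WT libraries. The groups did not overlap, and the WT libraries were the more spread, with replicate 2 lowest. The level was 3.33 ± 0.194 CPM in KO and 8.04 ± 1.12 CPM in WT (SD, n = 3 each), a log2 change of -1.27 ± 0.14 (edgeR, adjusted p = 8.14e-05). The call held in each of the 16 alternatives, with adjusted p up to 0.00595. Bmp4 stood at 49.9, 52.2 and 52.4 times the FPKM of Bmp2 in KO libraries, against 17.2, 23.6 and 19.5 times in WT libraries.

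Bmp3 showed the largest change of the 10 genes and had few reads left in KO. BMP3 is an atypical member of the family that opposes the bone-inducing BMPs and lowers bone density in mice. Bmp3 (ENSMUSG00000029335, chromosome 5, 99002274 to 99032255) had 32, 29 and 35 counts in KO libraries, against 297, 320 and 330 counts in WT libraries. In FPKM these were 0.0525, 0.0588 and 0.0577 in KO and 0.566, 0.607 and 0.612 in WT. The replicates of each genotype were close together and the genotypes far apart. The level was 0.445 ± 0.0233 CPM in KO and 4.78 ± 0.206 CPM in WT (SD, n = 3 each), 10.7-fold lower in KO, with a log2 change of -3.42 ± 0.18 (edgeR, adjusted p = 5.17e-07). On log2(FPKM + 1), a scale that understates the change of a gene at this level, the difference was -0.59 and was also called (adjusted p = 3.43e-04).

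Bmp5, Bmp6 and Bmp7 encode ligands of a further subgroup of the family, whose members signal mainly through ACVR1 and related type I receptors. Bmp6 (ENSMUSG00000039004, chromosome 13, 38529083 to 38684278) had 1.54, 1.43 and 1.41 FPKM in KO libraries, against 2.97, 2.94 and 2.73 FPKM in WT libraries. Each KO library was below each WT library, and the log2 change was -1.03 ± 0.09 (edgeR, adjusted p = 1.71e-05), called in each of the 16 alternatives. Its span overlaps Txndc5 on the opposite strand by 224 bases, and Txndc5, an endoplasmic reticulum protein gene, had 39464 to 50791 counts in KO libraries and 46616 to 48750 counts in WT libraries. Use of strand in the counting was not given, so reads from the shared bases cannot be told apart.

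Bmp5 (ENSMUSG00000032179, chromosome 9, 75682646 to 75807592), the second ligand of the set by FPKM, overlapped between genotypes. It had 3.54, 3.38 and 3.09 FPKM in KO libraries, against 3.05, 3.31 and 3.82 FPKM in WT libraries. Its log2 change of -0.07 ± 0.09 had a 95% interval of -0.28 to 0.14 and was not called (edgeR, adjusted p = 0.651). Bmp7 (ENSMUSG00000008999, chromosome 2, 172709805 to 172782114) had 290, 229 and 315 counts in KO libraries, against 202, 77 and 126 counts in WT libraries, or 0.904, 0.873 and 0.966 FPKM in KO and 0.706, 0.267 and 0.431 FPKM in WT. The KO libraries were close together, while the WT libraries had a coefficient of variation of 47.3%. The log2 change was 0.91 ± 0.29 and was just called (edgeR, adjusted p = 0.0489). The call was lost in 7 of the 14 alternatives in which Bmp7 was tested. Without any 1 of KO replicates 1, 2 and 3 and of WT replicates 2 and 3 its adjusted p was 0.110, 0.0950, 0.110, 0.0979 and 0.141. Without a filter it was 0.107 in edgeR and 0.0979 in limma on FPKM. The macrophage receptor gene Csf1r had 8.53, 8.48 and 7.68 FPKM in KO libraries, against 4.39, 2.97 and 3.85 FPKM in WT libraries, with WT replicate 2 lowest, as for Bmp7. Its part in the Bmp7 result was not tested.

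**Figure D2:**
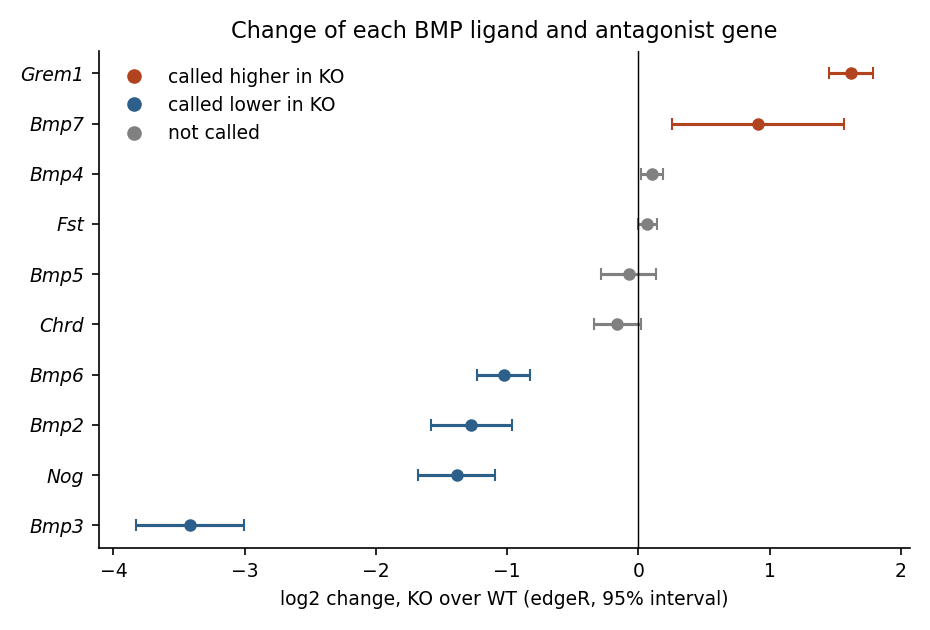
Log2 change of each gene, KO over WT, from edgeR's quasi-likelihood fit, with points at the estimate and bars for the 95% interval. Grem1 (1.62) and Bmp7 (0.91) lie to the right of 0, and Bmp6 (-1.03), Bmp2 (-1.27), Nog (-1.38) and Bmp3 (-3.42) to the left.

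The antagonists changed in opposite directions, with Grem1 higher and Nog lower in KO. Grem1 (ENSMUSG00000074934, chromosome 2, 113576509 to 113588991) encodes gremlin, a cystine-knot protein that binds BMP2, BMP4 and BMP7. It had 5.73, 5.76 and 5.33 FPKM in KO libraries, against 1.695, 1.685 and 1.902 FPKM in WT libraries. The lowest KO library was well above the highest WT library. The level was 24.3 ± 0.862 CPM in KO and 7.89 ± 0.549 CPM in WT (SD, n = 3 each), 3.07-fold higher in KO, with a log2 change of 1.62 ± 0.08 and adjusted p = 1.70e-07 in edgeR. Its adjusted p was at most 1.88e-04 over 16 alternatives.

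Nog (ENSMUSG00000048616, chromosome 11, 89191464 to 89193158) encodes noggin, which covers the receptor-binding faces of BMP2, BMP4 and BMP7. It had 199, 158 and 208 counts in KO libraries, against 483, 414 and 454 counts in WT libraries, and 1.47, 1.43 and 1.51 FPKM in KO against 4.02, 3.44 and 3.69 FPKM in WT. The groups did not overlap on either scale. The level was 2.61 ± 0.0925 CPM in KO and 6.82 ± 0.541 CPM in WT (SD, n = 3 each), a log2 change of -1.38 ± 0.13 (edgeR, adjusted p = 2.94e-05), also called in each of 16 alternatives. The ratio of Grem1 to Nog in FPKM was 3.89, 4.03 and 3.53 in KO libraries and 0.422, 0.489 and 0.515 in WT libraries, so that Grem1 was the more abundant of the pair in every KO library and Nog in every WT library.

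Chrd and Fst were not called. Chrd (ENSMUSG00000006958, chromosome 16, 20551877 to 20561134) encodes chordin, which releases its ligands when tolloid proteases cut it. It had 1.88, 1.82 and 1.94 FPKM in KO libraries, against 1.87, 2.05 and 2.18 FPKM in WT libraries, with overlapping groups and a log2 change of -0.16 ± 0.08 (edgeR, adjusted p = 0.204, 95% interval -0.34 to 0.02). Its span overlaps Thpo on the opposite strand by 1385 bases, a gene with 40 to 44 counts in KO libraries and 13 to 31 counts in WT libraries. Fst (ENSMUSG00000021765, chromosome 13, 114588826 to 114595487) encodes follistatin, which binds activins tightly and BMPs more weakly. It had 23.5, 22.4 and 22.4 FPKM in KO libraries, against 21.4, 20.9 and 20.8 FPKM in WT libraries. Every KO value was above every WT value, but the log2 change of 0.07 ± 0.03 was not called (edgeR, adjusted p = 0.185). Fst was called as higher in KO without TMM (0.12, adjusted p = 0.0302) and in limma's 3 tests on FPKM (adjusted p = 0.0331 to 0.0498).

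Bmp4, Bmp5 and Fst are each overlapped on the opposite strand by predicted genes, none of which had more than 94 counts in a KO library or 104 counts in a WT library.

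Summed per length, the ligands of the set overlapped between genotypes. The antagonists of the set were somewhat higher in KO, a direction that rested on Grem1. The log2 ratio of the antagonist sums, KO over WT, was 0.15, but 0.104 on TMM-scaled counts per kilobase and -0.0347 without Grem1. These sums have no test, since they rest on the choice of genes. Other antagonists and modulators, which summed lower in KO as given below, are left out of them. The 6 ligands summed to 54.5, 53.7 and 50.1 FPKM in KO libraries, against 49.7, 50.6 and 52.3 FPKM in WT libraries, with overlapping groups. Bmp4 supplied 87.4 ± 0.242% of the ligand sum in KO and 81.5 ± 0.894% in WT (SD, n = 3 each). Without Bmp4, the other 5 ligands summed to 6.99, 6.64 and 6.36 FPKM in KO libraries, against 9.61, 8.89 and 9.77 FPKM in WT libraries, with every KO library lower.

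The 4 antagonists summed to 32.6, 31.4 and 31.2 FPKM in KO libraries, against 28.9, 28.1 and 28.5 FPKM in WT libraries. Fst supplied 71.8 ± 0.416% of that sum in KO and 73.7 ± 0.849% in WT. Grem1 supplied 17.7 ± 0.638% in KO and 6.17 ± 0.434% in WT, and Nog 4.64 ± 0.178% in KO and 13.0 ± 0.821% in WT. The ratio of ligand sum to antagonist sum was 1.67, 1.71 and 1.61 in KO libraries and 1.72, 1.80 and 1.83 in WT libraries, which did not overlap but came close. An mRNA sum weighs each gene alike, whatever its protein's affinity, and protein was not measured in these libraries.

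**Figure D3:**
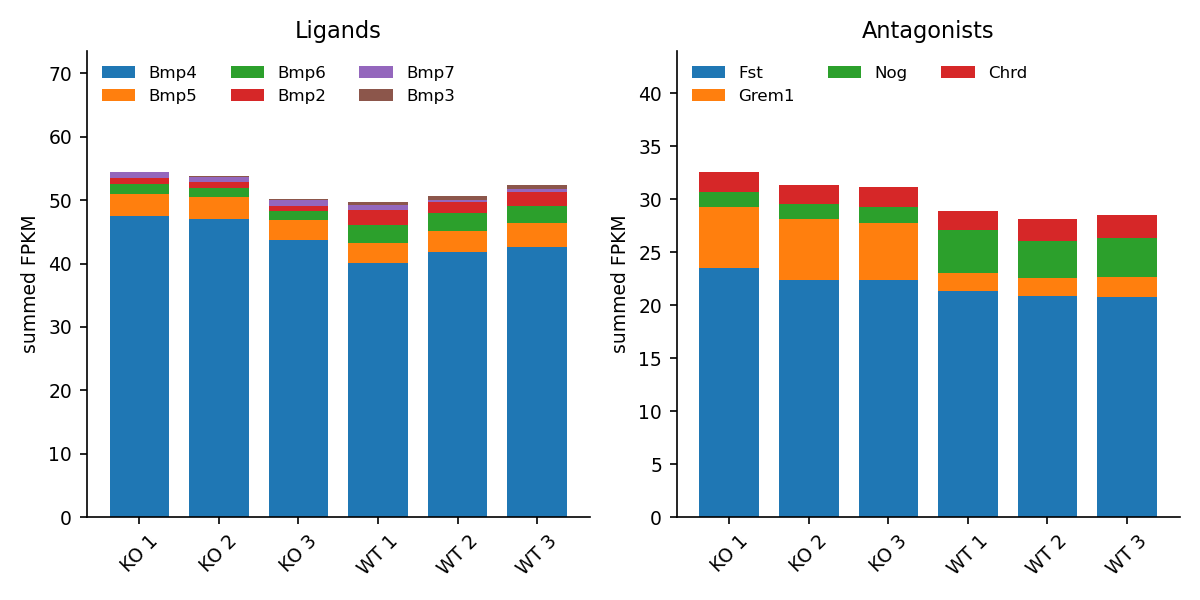
Summed FPKM of the 6 ligand genes (left) and the 4 antagonist genes (right) in each library, stacked by gene. Bmp4 fills most of each ligand bar and Fst most of each antagonist bar, while the Grem1 band is wider in KO and the Nog band wider in WT.

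The order of levels changed below the top. Bmp4 and Fst were highest in both genotypes. In KO, Grem1 came next at 5.60 FPKM, followed by Bmp5 at 3.33, Chrd at 1.88, Nog at 1.47, Bmp6 at 1.46, Bmp7 at 0.914, Bmp2 at 0.896 and Bmp3 at 0.0563 FPKM. The libraries of Nog and Bmp6 overlapped there, as did those of Bmp7 and Bmp2. In WT, Nog came next at 3.72 FPKM, followed by Bmp5 at 3.39, Bmp6 at 2.88, Bmp2 at 2.09, Chrd at 2.03, Grem1 at 1.76, Bmp3 at 0.595 and Bmp7 at 0.468 FPKM. Neighbours whose WT libraries overlapped were Nog and Bmp5, Bmp2 and Chrd, Chrd and Grem1, and Bmp3 and Bmp7.

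The wider family of BMP-like ligands held genes that rose. Of 23 other BMP, GDF and activin ligand genes listed, 21 were found and 12 passed the filter, of which 5 rose and 1 fell (50% called, against 22.9% of all genes tested), with a median log2 change of 0.02. Gdf10, which encodes the BMP3-like ligand BMP3B, fell as Bmp3 did and stood far higher in both genotypes, at 23.3, 25.6 and 22.7 FPKM in KO libraries against 38.2, 41.1 and 40.4 FPKM in WT libraries (log2 change -0.79 ± 0.04, edgeR adjusted p = 6.81e-07). Inhba and Inhbb, whose products form activins, ligands that follistatin traps, rose by 0.36 ± 0.04 and 0.77 ± 0.07 (edgeR, adjusted p = 2.06e-04 and 1.59e-05). Gdf6, a ligand needed for joints and skull sutures in mice, rose to 16.9 ± 1.24 CPM in KO, against 8.19 ± 1.65 CPM in WT (SD, n = 3 each, edgeR adjusted p = 2.13e-04). The other 2 that rose were Gdf7 and Gdf15.

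More of the other extracellular modulators fell than rose. Of 19 listed, 17 were found and 14 passed the filter, of which 9 fell and 3 rose (85.7% called, against 22.9% of all genes tested), with a median log2 change of -0.25. The 17 summed to 669 to 693 FPKM in KO libraries and 802 to 818 FPKM in WT libraries. Most of that was Fstl1, at 482 FPKM in KO and 575 FPKM in WT on average. Chrdl1, which encodes a chordin-like antagonist, stood at 109.8 ± 8.19 CPM in KO and 224 ± 4.48 CPM in WT (SD, n = 3 each), a log2 change of -1.03 ± 0.05 with adjusted p = 1.83e-07 in edgeR. In FPKM Chrdl1 had 15.7, 16.7 and 14.2 in KO libraries, against 31.4, 30.5 and 30.4 in WT libraries. The chordin-cutting proteases Bmp1 and Tll1 fell by 0.28 ± 0.03 and 0.46 ± 0.03 on the log2 scale, and Fstl1, a follistatin-related glycoprotein, fell by 0.30 ± 0.02 (edgeR, adjusted p = 4.03e-05, 4.67e-06 and 2.20e-06). Those that rose were the follistatin-like gene Fstl3 (0.83 ± 0.08), Sostdc1, a relative of the sclerostin gene (0.66 ± 0.16), and Crim1, which encodes a membrane protein that binds BMPs (0.24 ± 0.04), with edgeR adjusted p = 2.82e-05, 0.0122 and 0.00239. Twsg1, which encodes a partner of chordin, fell by 0.16 ± 0.03 (edgeR, adjusted p = 0.0038). Sost, the sclerostin gene of osteocytes, was listed at 0 FPKM in all KO libraries and in 2 of 3 WT libraries and was not tested.

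The type I receptor genes Bmpr1a, Bmpr1b and Acvr1 and the type II receptor gene Bmpr2 were not called, while Acvrl1 and Acvr2a fell. Bmpr1a, the main type I receptor gene, had 27.5, 26.9 and 26.8 FPKM in KO libraries, against 27.1, 25.8 and 26.9 FPKM in WT libraries (log2 change -0.02 ± 0.03, edgeR adjusted p = 0.644). Acvr1 stood at -0.02 ± 0.06 and the type II receptor gene Bmpr2 at -0.09 ± 0.03 (edgeR, adjusted p = 0.822 and 0.0715). Bmpr2 was called as lower without KO replicate 2 (-0.12, adjusted p = 0.0336). The near-zero changes of Bmpr1a and Acvr1 had the other sign without TMM and on FPKM. Bmpr1b was barely read, at 0.881 ± 0.397 CPM in KO and 0.984 ± 0.121 CPM in WT. Over 14 tested receptors and co-receptors 5 fell and 2 rose (50% called, against 22.9% of all genes tested), with a median log2 change of -0.10. The 2 that rose were Bambi by 0.33 ± 0.09 and Eng by 0.17 ± 0.05 (edgeR, adjusted p = 0.0192 and 0.0196). They were called in 11 and 12 of 16 alternatives. Acvrl1, which encodes the type I receptor ALK1, known chiefly from blood vessels, fell by 0.19 ± 0.04 (edgeR, adjusted p = 0.0103). Acvr2a, a type II receptor gene for activins and BMPs, fell by 0.70 ± 0.05 and the co-receptor gene Rgma by 0.79 ± 0.05 (edgeR, adjusted p = 2.46e-06 and 7.46e-07). Tgfbr3, which encodes betaglycan, fell by 0.23 ± 0.04, and Neo1, the gene of the RGM-binding receptor neogenin, fell by 0.11 ± 0.02 (edgeR, adjusted p = 0.00145 and 0.00529). Neo1 lost its call without TMM (adjusted p = 0.0739) and on FPKM (adjusted p up to 0.120).

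Downstream, 4 of 17 SMAD genes and regulators were called, a share of 23.5% against 22.9% of all genes tested. Smad5, which carries the BMP signal, fell by 0.28 ± 0.04, while Smad1 stood at -0.09 ± 0.08 (edgeR, adjusted p = 2.36e-04 and 0.486). The transcriptional repressor gene Zeb2 rose by 0.22 ± 0.03 (edgeR, adjusted p = 9.67e-04). Smad3 and Skil fell by 0.16 ± 0.04 and 0.37 ± 0.08 (edgeR, adjusted p = 0.00883 and 0.00678), but on FPKM without a filter neither was called (adjusted p = 0.101 and 0.112), and Smad3 was not called in limma's other 2 tests on FPKM either (adjusted p = 0.0621 and 0.0629).

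Of 18 tested BMP target genes 5 rose and 1 fell (33.3% called, against 22.9% of all genes tested), and the median log2 change was 0.28. The 1 that fell was Runx2, the main transcription factor of osteoblasts, at 77.8 ± 5.14 CPM in KO and 91.2 ± 3.44 CPM in WT (SD, n = 3 each, edgeR adjusted p = 0.00756), called in 13 of 16 alternatives. Msx2, a homeobox gene of the skull, had 29.5, 28.0 and 29.3 FPKM in KO libraries, against 15.6, 15.9 and 17.1 FPKM in WT libraries (edgeR, log2 change 0.79 ± 0.04, adjusted p = 6.82e-07). Gata2 and Dlx2, which encode developmental transcription factors, rose by 1.53 ± 0.12 and 0.83 ± 0.11, and Id3 rose by 0.22 ± 0.03 (edgeR, adjusted p = 8.94e-06, 3.70e-04 and 3.39e-04). Id1, the most used readout of BMP signalling, was at 36.5, 37.7 and 34.7 FPKM in KO libraries and 35.0, 35.4 and 38.1 FPKM in WT libraries. Its groups overlapped, and its log2 change of -0.05 ± 0.05 was not called (edgeR, adjusted p = 0.608), with a sign that turned without TMM and on FPKM.

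**Figure D4:**
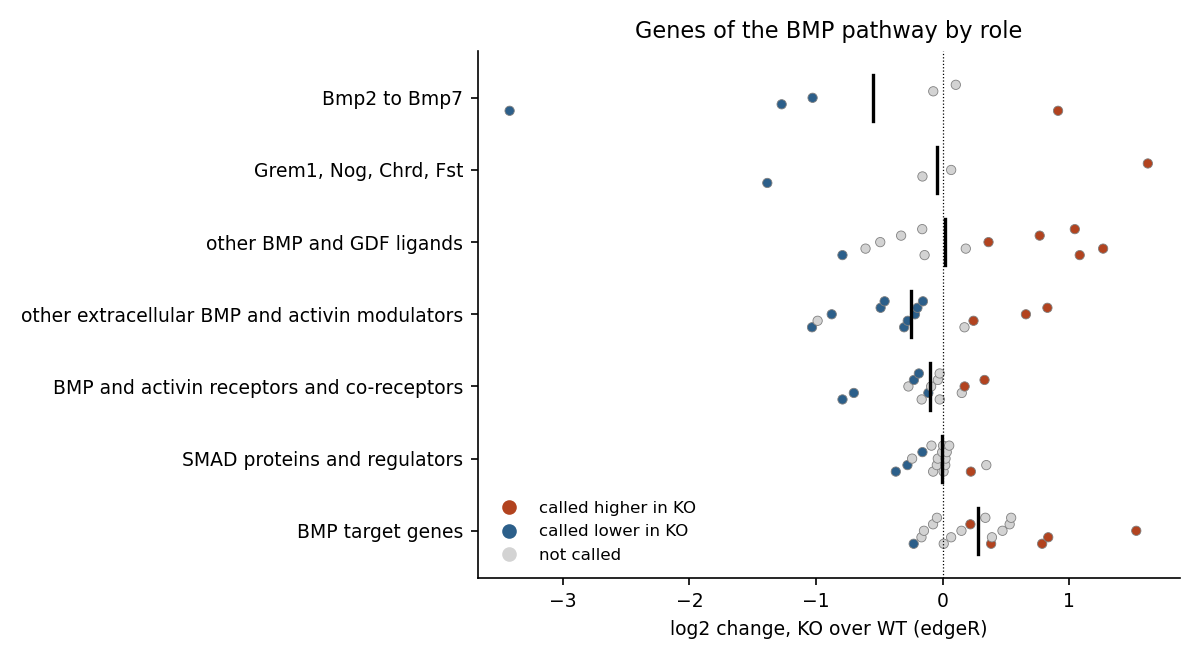
Log2 change, KO over WT, of each tested gene of the BMP pathway, by role, with 1 point per gene coloured by its call and a black bar at the median of each list. The other extracellular modulators have a median of -0.25 and the target genes one of 0.28.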

How the data were processed

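Polyadenylated RNA of 6 libraries (KO and WT, 3 each) was analysed from a table of 29018 genes. The authors deposited raw counts per gene, and separately FPKM values, scaled by them to transcript length and library size. The submitters' processing notes list StringTie 1.3.4d, HISAT2 2.0.4 and cutadapt 1.9 without settings, and give a human build for mouse identifiers, and 0 of the 10 genes had the coordinates of GENCODE M21, so the build was not settled.

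In R 4.3.3, edgeR 4.0.16 was run on the counts with TMM scaling, its filterByExpr and a two-sided quasi-likelihood test over 18221 genes, with Benjamini-Hochberg adjustment over all of them and a threshold of 0.05. SE was the size of the log2 change divided by the root of the F statistic, and 95% intervals used the t quantile of the fit. The common biological coefficient of variation was 12.6%. Intervals cover only the spread between libraries. Exact two-sided permutation tests on log2(FPKM + 1) cannot go below p = 0.1 with 3 against 3 libraries, which they gave for each called gene among the 10.

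The genes and lists were chosen with earlier results of these data known. Named beyond the 10 genes are, from each list, up to 4 called genes of lowest p and fixed core genes, of which 1 is not reported here. Alpl, C1qc, Csf1r, Col2a1 and Plin1 are fixed marker genes. Gdf7, Gdf15, Acvrl1, Runx2, Fstl3, Sostdc1, Crim1, Ctsk, Mmp9, Acp5, Bambi, Eng, Txndc5 and Thpo were named after their values were seen. The same holds for Lpl, Fabp4, Adipoq and Pparg. KO and WT libraries of the same replicate number showed no shared deviation over all genes tested (correlations of deviations -0.05, -0.01 and 0.01). With 3 libraries of each genotype this cannot show that they were unpaired. Alternatives used limma 3.58.1, DESeq2 1.42.0, other scalings and filters, a replicate block, and each library left out. The scripts were tested on simulated data.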

Additional observations from a re-analysis of the deposited data

How the results depend on the processing

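Of the 10 genes, Bmp2, Bmp3, Bmp6, Grem1 and Nog kept their direction and call in every alternative in which they were tested, and Bmp5 and Chrd were called in none. Bmp3 and Bmp7, with mean FPKM below 1, were not tested under the FPKM filter. Whether replicate numbers pair the libraries was not given. The replicate block changed no call among the 10 genes (2 higher, 4 lower). It gave 1912 higher and 1976 lower genes in all, against 2048 and 2131 without it. The share of calls that were higher was 63.0% without TMM and 64.4% in limma on log2(FPKM + 1), against 49.0% with TMM. Both moved the median gene by 0.05.

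In limma on FPKM, 1267 and 1254 genes were lower with a mean of at least 1 (pseudocounts 1 and 0.1) and 1246 without a filter. Of the 10 genes, 4 were called higher without TMM, 1 without a count filter and 1 to 2 with a library left out. Of the SMAD genes, 2 were called in limma without a filter. The cause of these shifts was not tested.

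Without TMM, log2 changes were 0.152 for Bmp4, 0.115 for Fst, 0.0247 for Bmpr1a, 0.0255 for Acvr1 and 0.00343 for Id1. In limma on FPKM with pseudocounts of 1 and 0.1 they were 0.149 and 0.152 for Bmp4, 0.111 and 0.115 for Fst, 0.0249 and 0.0257 for Bmpr1a, 0.0262 and 0.0283 for Acvr1, and 0.00462 and 0.00474 for Id1. Without a filter on FPKM they were 0.111, 0.0249, 0.0262 and 0.00462 for Fst, Bmpr1a, Acvr1 and Id1, and 0.394 for Bmp7, whose change without a count filter was 0.921.

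With a library left out, changes ran from 0.0816 to 0.133 for Bmp4, -0.145 to 0.0200 for Bmp5, 0.632 to 1.33 for Bmp7, -0.591 to 0.0172 for Bmpr1b and -0.0834 to 0.0181 for Acvr1. The log2 ratio of summed ligands was 0.05, and -0.501 without Bmp4. That of summed antagonists was 0.15, against 0.104 from TMM-scaled counts per kilobase, and -0.0347, 0.287 and 0.254 without Grem1, Nog and Fst. Sost, with few or no reads, was below the count filter, so no difference could be tested at this depth.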
